A study of Mus musculus with 9 samples.

Results

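Potassium channel genes were followed in the cortex of mice with EAE (experimental autoimmune encephalomyelitis), in which immune cells attack brain and spinal cord as in multiple sclerosis. The genes are those whose symbol starts with Kcn and a letter, without symbols that end in os, with a mean of at least 1 CPM (a gene's count scaled to the total count of its library) over the 9 libraries. Of 34714 genes in the count table, 98 have such a symbol, 97 were left without the antisense gene Kcnd3os, and 77 reached that mean. Of the 77, 75 encode a channel subunit and 2, Kcnq1ot1 and Kcnmb4os2, are non-coding RNAs. Just inside the threshold were Kcne4, Kcnj13 and Kcnj14 with means of 1.64, 2.09 and 2.32 CPM, and just outside it Kcnj5, Kcne2 and Kcnmb1 with 0.965, 0.834 and 0.762 CPM.

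Potassium channels let potassium leave the cell and so set the resting potential, end the action potential and space the spikes of a train. Voltage-gated subunits (Kv) assemble as tetramers, silent Kv subunits form no channel alone and modify others, and inward rectifiers (Kir) and two-pore-domain channels (K2P) hold the resting potential. Calcium-activated channels give the after-hyperpolarisation, and in astrocytes Kir channels take up the potassium that neurons release.

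RNA was sequenced from 3 groups of 3 samples of mouse cortex: mice with EAE given Au18(L-NIBC)14, a gold nanocluster coated with a cysteine derivative (called treated here), mice with EAE alone, and naive mice without EAE. The tissue label says brain, while the design text and the extraction protocol name cortex. The sources used here do not give the inducing antigen, the strain, sex or age of the mice, or the dose, schedule and day. Titles number the brains within a group from 1 to 3 without saying more of the animals, so p-values measure the spread between these samples only.

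Total counts lay between 26972179 and 45243553 per library, and the test covered 18644 genes, with all 77 channel genes among them. CPM values are scaled by TMM, which corrects library sizes. Fold changes are on the log2 scale, with their standard error (SE), and come from edgeR's quasi-likelihood test with Benjamini-Hochberg adjustment over the 18644 genes. A gene passed at an adjusted p under 0.05. Summed markers of excitatory cortical neurons were at 1704 to 1783 CPM in treated, 1367 to 1572 CPM in EAE and 1617 to 1687 CPM in naive libraries, so the defining markers of cortex were present in all. Markers of the striatum, which lies beneath the cortex, were present too, at 186 to 653 CPM in treated, 146 to 882 CPM in EAE and 131 to 990 CPM in naive libraries. In bulk tissue, fewer cells of a type and less RNA per cell cannot be told apart.

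The promoters of Kcna6 and Kcnh1 are shown because Kcna6, a Kv1 subunit gene, passed the test in treated against EAE cortex and Kcnh1, an EAG subunit gene, had the smallest p there among the other channel genes with a higher mean. Each line gives the 250 bases before the RefSeq transcription start on GRCm38.p6, 5′ to 3′ on the gene's strand. The Kcna6 window is chr6:126740675-126740924 on the minus strand (58.8% G and C), and the Kcnh1 window is chr1:192190527-192190776 on the plus strand (62.0% G and C). Capitals mark a GC box.
Kcna6: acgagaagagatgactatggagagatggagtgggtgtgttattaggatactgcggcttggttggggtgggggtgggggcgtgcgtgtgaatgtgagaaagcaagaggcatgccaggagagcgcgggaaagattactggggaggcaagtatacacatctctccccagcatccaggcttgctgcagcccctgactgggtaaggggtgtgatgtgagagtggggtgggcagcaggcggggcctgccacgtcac
Kcnh1: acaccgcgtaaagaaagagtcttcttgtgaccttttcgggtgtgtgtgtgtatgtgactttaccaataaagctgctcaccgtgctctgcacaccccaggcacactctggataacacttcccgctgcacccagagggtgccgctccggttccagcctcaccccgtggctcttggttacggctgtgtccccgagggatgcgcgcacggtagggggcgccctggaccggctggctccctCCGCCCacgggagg
Both strands were searched, from 250 bases before to 50 bases after each start, for 5 motifs. Of all 32851 windows, 0.475% held the palindromic glucocorticoid response element and 1.79% the cAMP response element TGACGTCA. The left arm of the RE1 site of the neuronal repressor REST, TTCAGCACC, was in 0.371% of windows, its right arm in 0.137%, and the GC box GGGCGG in 35.7%. In the 250 bases shown, the Kcna6 window held none of these and the Kcnh1 window held 1 GC box, which is a match of letters only. Windows were found for 56 of the 77 genes, which is under 80%, so a motif share over the channel genes would be void and is not given.

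Levels are given per kilobase of exon, where the exons of all annotated transcripts of a gene are joined, so they are not levels of single transcripts. Kcnab2, which encodes a cytoplasmic beta subunit of Kv1 channels, had the highest such level of the 77 genes. Its mean over the 9 libraries was 98.6 CPM per kilobase of exon. Among genes that form a pore, Kcnj4, a strong inward rectifier of forebrain neurons, had 69.8 and Kcna1, a low-threshold Kv1 subunit of axons, 48.3 CPM per kilobase. Kcnj10, the main inward rectifier of astrocytes, followed with 42.5 CPM per kilobase. These 4 genes come from 3 classes, the accessory subunits, the inward rectifiers and the Kv1 subunits.

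Levels also differed within classes. Among the Kv1 genes Kcna1 was followed by Kcna2 (27.1 CPM per kilobase), which share channels along axons. Kcnb2, a Kv2 subunit gene, had 1.86 CPM per kilobase. Of the Kv3 genes of fast-spiking cells, Kcnc4 had 30.2 and Kcnc1 25.7 CPM per kilobase. The Kv4 genes of the dendritic A-type current had less, with 19.6 for Kcnd2 and 9.4 CPM per kilobase for Kcnd3. Kcnq3, a Kv7 subunit gene of the M-current that restrains repetitive firing, had 16.3 CPM per kilobase, and its highest library was 1.12 times its lowest. Of the EAG, ERG and ELK genes, Kcnh3 had 37.9 and Kcnh1 13.2 CPM per kilobase, and of the silent Kv genes Kcnf1 had 31.9 and Kcnv1 23.5. Kcnt1, a sodium-activated channel gene, had 32.8 and Kcnma1, the pore of the large-conductance calcium-activated (BK) channel, 19.9 CPM per kilobase. Kcnk1 and Kcnk9 led the K2P genes with 37.7 and 19.4 CPM per kilobase, and Kcnip2, a calcium-binding partner of Kv4, was next to Kcnab2 among accessory genes with 41.9. The lowest level was that of the long non-coding RNA Kcnq1ot1, 0.186 CPM per kilobase.

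**Figure D1:**
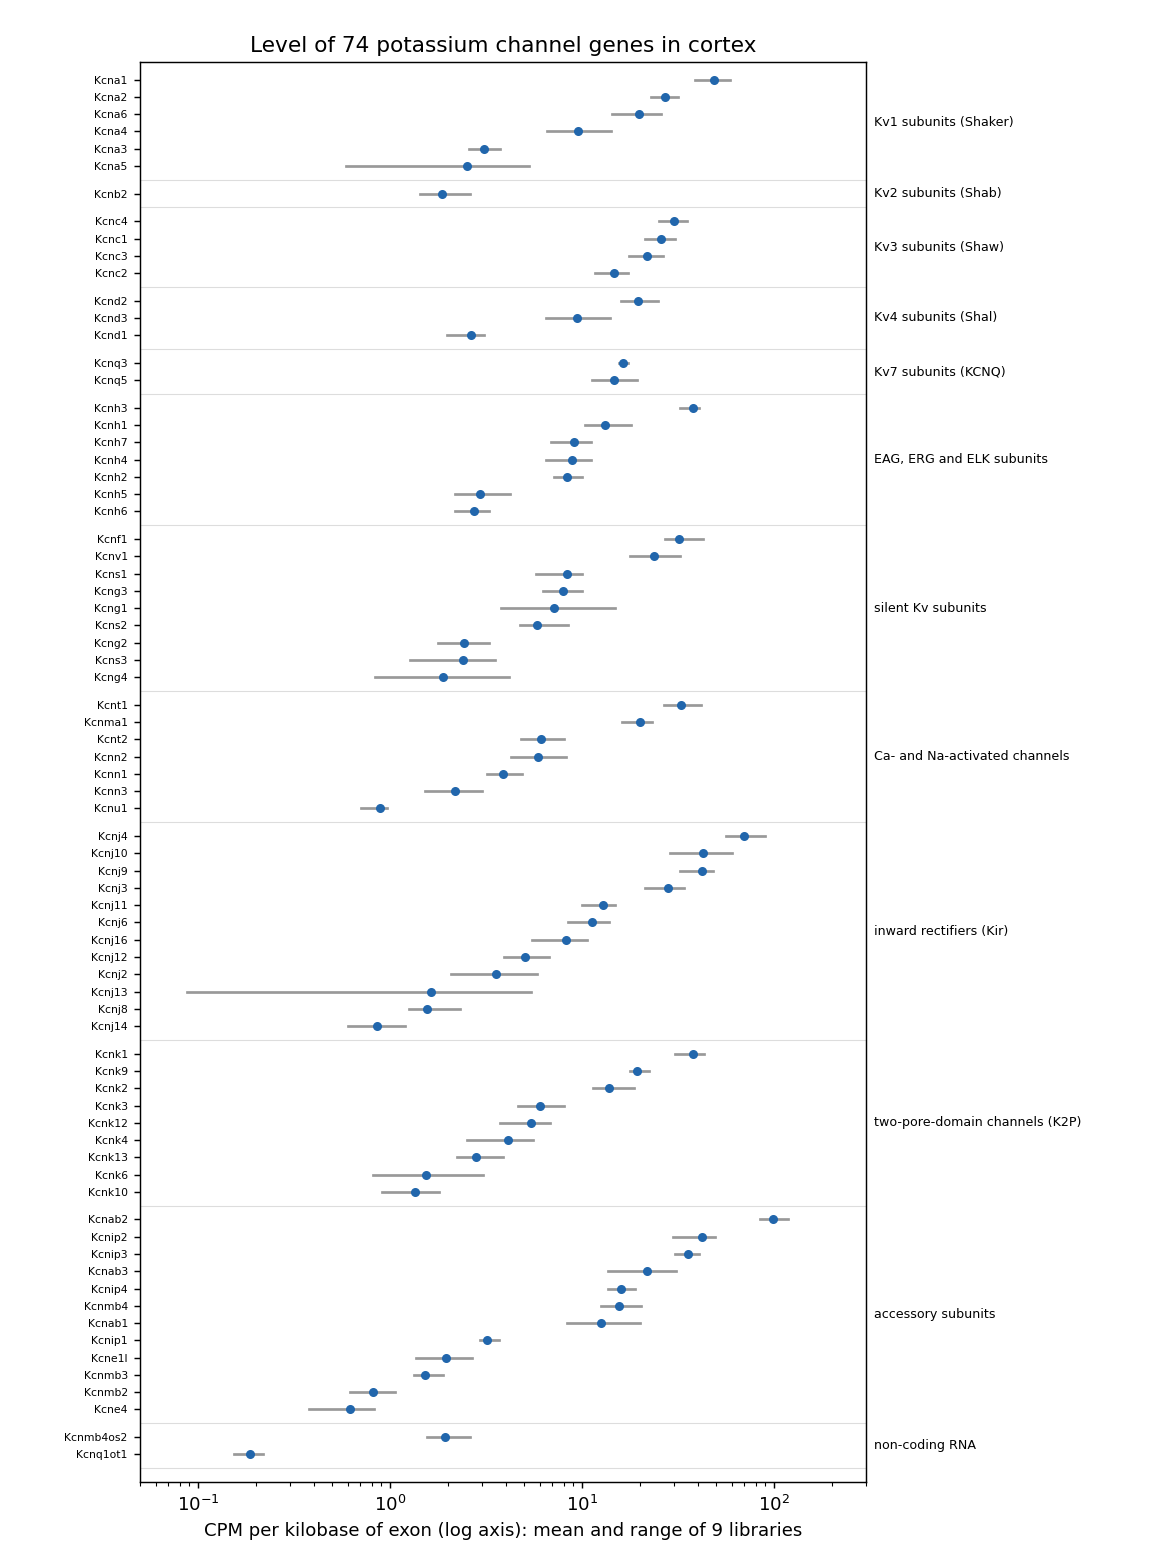
Level of 74 of the 77 genes, grouped by class, in CPM per kilobase of exon on a log axis; points are the mean of 9 libraries and lines the range. Kcnab2, Kcnj4 and Kcna1 lie farthest right, and the lines of Kcnj13 and Kcna5 are the longest.

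The genes that varied most between libraries did so within groups as well. Kcnj13, a channel of the choroid plexus, had a highest library 62.7 times its lowest, Kcna5 8.96 times, Kcng4 5.01 times and Kcng1 3.92 times. Kcna5 and Kcng1 are given here because of this spread, after their values were seen. Kcna5 had 4.4, 12.7 and 1.69 CPM in treated libraries, 8.99, 15.1 and 4.55 CPM in EAE libraries and 9.65, 5.1 and 2.65 CPM in naive libraries, so every group held a low and a high library. Striatal markers varied in the same libraries: their sums were 186, 653 and 226 CPM in treated, 597, 882 and 146 CPM in EAE and 990, 301 and 131 CPM in naive libraries. Their part in the values of Kcna5 was not tested. Kcng1, a silent subunit gene, had 66.8, 30.6 and 20.7 CPM in treated libraries, 33.1, 25.4 and 17 CPM in EAE libraries and 35.4, 39.4 and 20.4 CPM in naive libraries, with the highest value in treated replicate 1 and the groups overlapping.

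In EAE against naive cortex, Kcnn2 was the only 1 of the 77 channel genes that passed, and it was higher in EAE. Kcnn2 encodes the small-conductance calcium-activated channel SK2, which carries part of the after-hyperpolarisation. Of the 77, 56 (72.7%) had a log2 fold change below 0, against 51.0% of all genes tested. The median was -0.12 over the 77 genes, against -0.005 over all genes tested. The smallest p-values among those that did not pass were those of Kcna6, Kcnv1 and Kcnh7, all with lower means in EAE.

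The 1 gene that passed is 1.3% of the 77, near the 0.987% of all genes that passed in this comparison. By direction, 0.735% of all genes passed as higher and 0.252% as lower, and none of the 77 passed as lower by edgeR. At an unadjusted p under 0.05 were 14 channel genes (18.2%), 5 higher and 9 lower, against 16.4% of all genes, 9.42% higher and 6.97% lower. DESeq2 called 3, Kcnn2 as higher and Kcna6 and Kcnv1 as lower, against 5.82% of all genes, 3.86% higher and 1.97% lower. With the study's further threshold on size, a log2 fold change beyond 1 in either direction, no channel gene passed, against 0.434% of all genes. The 3 EAE libraries lay below all 3 naive libraries in 15 genes (19.5%, against 11.8% of all genes) and above them in 6 (7.79%, against 12.2%).

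In treated against EAE cortex, Kcna6 was the only 1 of the 77 genes that passed, and it was higher in treated mice. No label pairs the libraries by replicate number. With that number as a block over all 9 libraries, Kcna6 did not pass (edgeR adjusted p = 0.0536) and no channel gene did. With a block and only the 2 groups compared, its edgeR adjusted p was 0.106. Kcna6 encodes a Kv1 subunit that joins others of its class in low-threshold axonal channels. Kcnn2 had a lower mean in treated than in EAE cortex but did not pass, and Kcnh1, Kcng4 and Kcnj12 had the next smallest p-values, all with higher means in treated cortex. Above 0 were 56 of 77 log2 fold changes (72.7%), against 50.6% of all genes, and the median was 0.14 against 0.003. This comparison and the one before share the EAE libraries, so a gene that is low or high in EAE enters both, with opposite sign, and the values below are given side by side for that reason.

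The 1 gene of 77 (1.3%) stands beside 0.22% of all genes that passed, 0.0912% as higher and 0.129% as lower. At an unadjusted p under 0.05 were 12 channel genes (15.6%), 10 higher and 2 lower, against 15.1% of all genes, 7.43% higher and 7.65% lower. DESeq2 called 4, Kcna6, Kcng4 and Kcnh1 as higher and Kcnn2 as lower, against 4.01% of all genes, 1.86% higher and 2.16% lower. None passed with the threshold on size added, against 0.059% of all genes. All 3 treated libraries lay above all 3 EAE libraries in 12 genes (15.6%, against 9.92% of all genes) and below them in 2, Kcnmb3 and Kcnn2 (2.6%, against 9.28%). Kcnmb3, a BK accessory subunit gene, is named for this count, after its values were seen.

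In treated against naive cortex, no channel gene passed and edgeR called none of all genes tested (0.0%). Nor did any of the 77 reach an unadjusted p under 0.05, against 318 genes or 1.71% of all genes, and DESeq2 called none of the 77 against 3 genes (0.0161%) in all. The median log2 fold change was 0.03 over the 77 genes and 0.01 over all genes, and 46 of 77 (59.7%) were above 0, against 53.6% of all genes. The log2 fold change of Kcna6 was 0.17 with a 95% interval of -0.05 to 0.40, and that of Kcnn2 0.12 with an interval of -0.13 to 0.37. Both intervals include 0, and neither shows that the groups are alike.

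**Figure D2:**
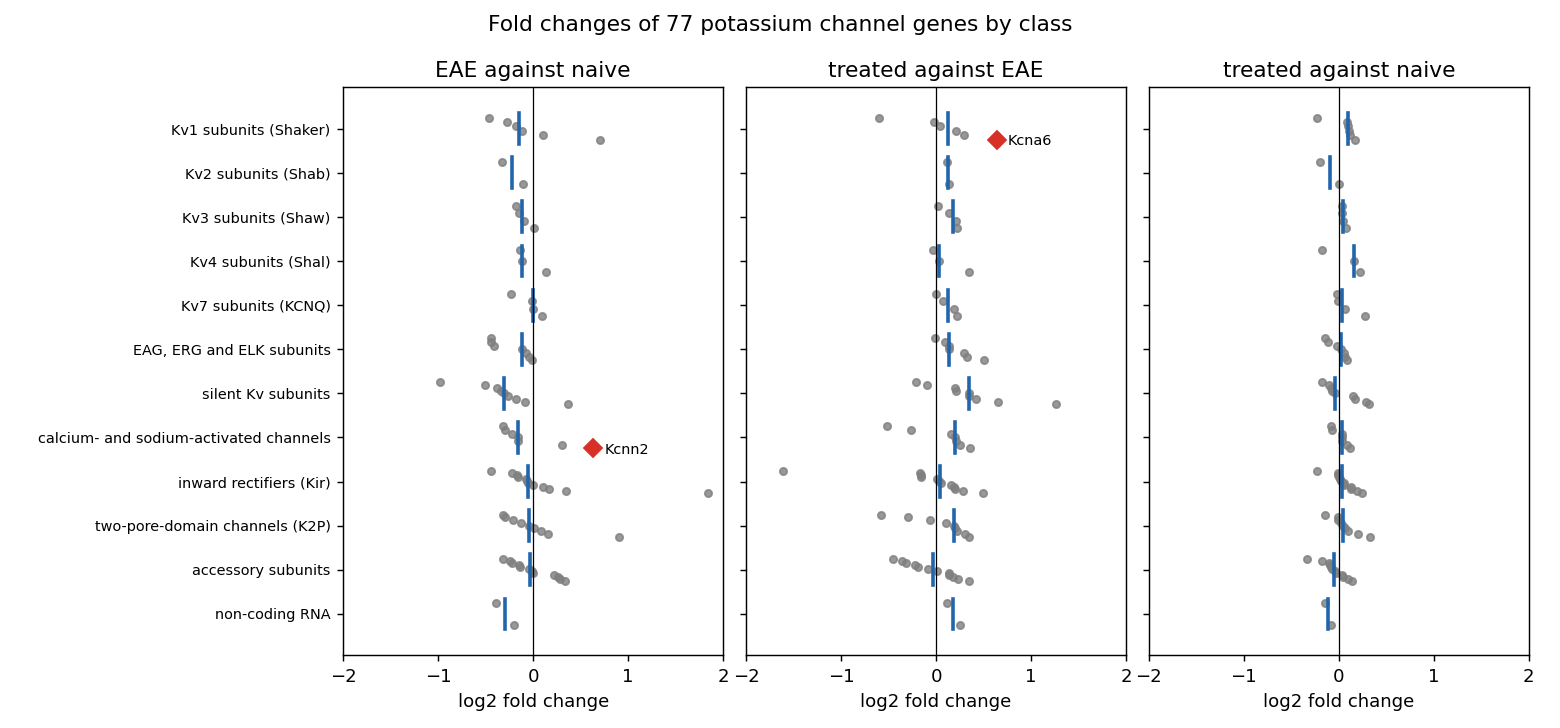
Log2 fold change of each of the 77 genes (points) by class in EAE against naive, treated against EAE and treated against naive cortex, with the class median as a blue bar and genes with an edgeR adjusted p under 0.05 as red diamonds. Kcnn2 at 0.63 on the left and Kcna6 at 0.65 in the middle are the only diamonds, and most points lie left of 0 on the left and right of 0 in the middle.

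Among the Kv1 subunit genes, Kcna6 (GENCODE M21, GRCm38 chromosome 6, 126708329 to 126740674, minus strand) had 123, 141 and 153 CPM in treated libraries, 92.2, 84.6 and 89.9 CPM in EAE libraries and 136, 110.0 and 123 CPM in naive libraries. The treated and the naive libraries overlapped, and all 6 lay above the 3 EAE libraries. The means were 139 ± 15.4, 88.9 ± 3.89 and 123 ± 12.9 CPM in treated, EAE and naive cortex (SD, n = 3 each). In treated against EAE cortex Kcna6 rose by 0.65 on the log2 scale (SE 0.10, edgeR adjusted p = 0.0457). Deviations of same-numbered treated and EAE libraries had correlations of 0.175 to 0.245, which cannot show a pairing. With the replicate number as a block over all 9 libraries, Kcna6 was at 0.65 (edgeR adjusted p = 0.0536) and did not pass. With a block and only the 2 groups compared, Kcna6 was at 0.63 (edgeR adjusted p = 0.106). In the same comparison, leaving out any 1 of the 9 libraries except treated replicate 1 took the edgeR adjusted p of Kcna6 to between 0.0685 and 0.154, and over all 19 alternatives it ranged from 4.58e-06 to 0.154. In EAE against naive cortex it did not pass, at -0.47 (SE 0.10, edgeR adjusted p = 0.0605). Over the 19 alternatives of that comparison the adjusted p ranged from 0.00169 to 0.258. Exons of Kcna6 share 2355 bases with Gm26673 on the other strand, and as no source used here gives the strand setting of the counting, reads of the pair cannot be told apart. The other 5 Kv1 genes had log2 fold changes between -0.28 (Kcna4) and 0.71 (Kcna5) in EAE against naive cortex, none of them past an unadjusted p of 0.05.

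Kcna3, the Kv1 subunit of T cells and microglia, had 7.03, 7.11 and 5.07 CPM in treated libraries, 5.32, 4.88 and 5.52 CPM in EAE libraries and 6.28, 4.95 and 6.55 CPM in naive libraries. The groups overlapped, with log2 fold changes of 0.29 in treated against EAE and -0.18 in EAE against naive cortex (edgeR adjusted p = 0.474 and 0.676). Kcna1 and Kcna2, the most abundant Kv1 genes, had log2 fold changes of -0.02 and 0.21 in treated against EAE and 0.10 and -0.12 in EAE against naive cortex, and their groups overlapped too.

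No gene of the Kv2, Kv3, Kv4 or Kv7 classes passed in any comparison. The median log2 fold changes in treated against EAE cortex were 0.18 for the 4 Kv3 genes, 0.03 for the 3 Kv4 genes and 0.13 for the 4 Kv7 genes. In EAE against naive cortex they were -0.12, -0.12 and -0.01. Of the 13 genes of all 4 classes only Kcnd1, a Kv4 subunit gene, reached an unadjusted p under 0.05, in treated against EAE cortex. Kcnd1 had 15.5, 16.2 and 15.7 CPM in treated libraries, 13.4, 13.6 and 10.4 CPM in EAE libraries and 14.6, 13.7 and 12.2 CPM in naive libraries. Its 3 treated libraries lay above all EAE and all naive libraries, with log2 fold changes of 0.34 against EAE (SE 0.12, edgeR adjusted p = 0.223) and 0.22 against naive cortex (SE 0.12, edgeR adjusted p = 1). In treated against naive cortex it and Kcnu1, a relative of the BK pore named for this count only, were the 2 genes (2.6%) with treated libraries above all naive ones, against 3.51% of all genes, and none lay below them, against 2.74%. Other genes of small p against naive cortex were Kcnab1 (-0.34), Kcnk6 (0.33), Kcnk3 (0.20), Kcnd2 (-0.18), Kcnf1 (0.17) and Kcnip1 (0.14), all with an edgeR adjusted p of 1.

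All 7 EAG, ERG and ELK genes had log2 fold changes below 0 in EAE against naive cortex, from -0.44 to -0.01 with a median of -0.11, and none passed. Kcnh1, the EAG channel gene (chromosome 1, 192190774 to 192510159, plus strand), had 89.1, 132 and 108 CPM in treated libraries, 79.5, 76 and 76.7 CPM in EAE libraries and 121, 90.7 and 97.1 CPM in naive libraries. The EAE libraries lay within a few CPM of each other and below the other 6, while the treated and naive libraries overlapped. Its log2 fold change was 0.50 in treated against EAE (SE 0.14, edgeR adjusted p = 0.167) and -0.41 in EAE against naive cortex (SE 0.14, edgeR adjusted p = 0.202). Kcnh7, an ERG channel gene, had 114, 146 and 165 CPM in treated libraries, 117, 105 and 123 CPM in EAE libraries and 169, 131 and 169 CPM in naive libraries, and here treated and EAE libraries overlapped. Its log2 fold changes were 0.30 and -0.44 (edgeR adjusted p = 0.369 in treated against EAE and 0.173 in EAE against naive cortex), and its exons share 696 bases with Gca on the other strand. Kcnh3, an ELK gene of forebrain neurons and the most abundant of the class, stood at 216 ± 25.8, 218 ± 3.87 and 219.6 ± 11.7 CPM in treated, EAE and naive cortex.

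The 9 silent Kv genes had the largest class medians among the 11 classes of subunit genes in both comparisons, 0.34 in treated against EAE and -0.31 in EAE against naive cortex, and none of them passed. In EAE against naive cortex 8 of 9 log2 fold changes were below 0, beside 51.0% of all genes, and in 4 of them the EAE libraries lay below all naive ones, beside 11.8% of all genes. These are counts in a small class and were not tested against other genes. Kcnv1, which lowers the current of Kv2 channels it joins, had 117, 119 and 111 CPM in treated libraries, 92.9, 83.8 and 81.6 CPM in EAE libraries and 149, 121 and 96.7 CPM in naive libraries. All EAE libraries lay below the other 6, and the naive libraries were the most spread. Its log2 fold change was 0.42 in treated against EAE (SE 0.13, edgeR adjusted p = 0.189) and -0.51 in EAE against naive cortex (SE 0.13, edgeR adjusted p = 0.104). Kcng4, a scarcer silent subunit, had 5.3, 7.71 and 15.9 CPM in treated libraries, 3.44, 3.17 and 5.32 CPM in EAE libraries and 7.08, 7.85 and 8.65 CPM in naive libraries, with treated replicate 3 well above the rest and treated replicate 1 just below the highest EAE library. Its log2 fold changes, 1.27 (SE 0.38, edgeR adjusted p = 0.176) in treated against EAE and -0.98 (SE 0.38, edgeR adjusted p = 0.241) in EAE against naive cortex, had wide errors. Without treated replicate 3 the log2 fold change of Kcng4 in treated against EAE cortex was 0.71. Kcnf1, the most abundant of the class, had 204, 181 and 129 CPM in treated, 131, 139 and 134 CPM in EAE and 163, 154 and 141 CPM in naive libraries, where treated and EAE libraries overlapped.

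**Figure D3:**
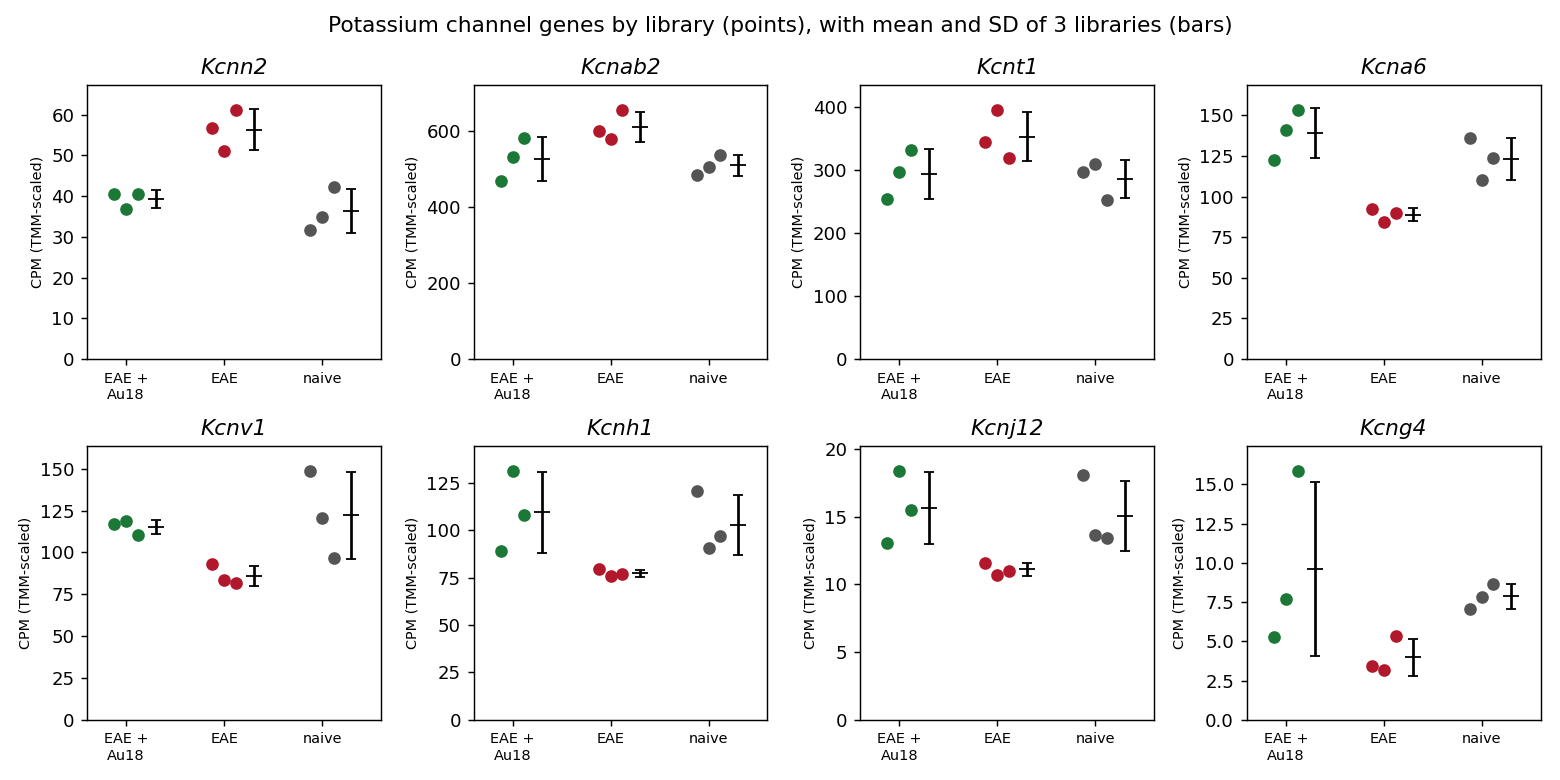
CPM of 8 channel genes in each library (points, replicates 1 to 3 from left to right) of treated, EAE and naive cortex, with the mean and SD of 3 libraries beside them. The EAE libraries lie above the naive ones for Kcnn2, Kcnab2 and Kcnt1 and below them for Kcna6, Kcnv1, Kcnh1, Kcnj12 and Kcng4.

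Among the calcium- and sodium-activated channel genes, Kcnn2 had 40.5, 36.8 and 40.6 CPM in treated libraries, 56.7, 51.1 and 61.2 CPM in EAE libraries and 31.7, 35 and 42.3 CPM in naive libraries. The treated and naive libraries overlapped, and the 3 EAE libraries lay above all of them. The means were 39.3 ± 2.17, 56.3 ± 5.08 and 36.3 ± 5.4 CPM in treated, EAE and naive cortex (SD, n = 3 each). In EAE against naive cortex Kcnn2 rose by 0.63 on the log2 scale (SE 0.11, edgeR adjusted p = 0.0351). In treated against EAE cortex it was at -0.52 (SE 0.11, edgeR adjusted p = 0.0953) and did not pass with edgeR, while DESeq2 gave an adjusted p of 0.00408, the smallest of 19 alternatives whose largest was 0.266. The EAE against naive call was lost without any 1 of the EAE replicates, without naive replicate 1 or 2 and without treated replicate 2, where the edgeR adjusted p lay between 0.0585 and 0.145 and the log2 fold change between 0.54 and 0.70. Over all 19 alternatives its adjusted p ranged from 9.73e-05 to 0.191. Exons of Kcnn2 share 284 bases with A330093E20Rik and 323 with AC121957.1, both on the other strand. The sum of 4 thalamus markers was highest in the same 3 libraries as Kcnn2, at 105 to 120 CPM in treated, 133 to 144 CPM in EAE and 97.96 to 127 CPM in naive libraries. Only Prkcd had all EAE libraries above all treated and naive ones. Rora, which made up most of the sum, had 76.9 to 90.4 CPM in EAE and 63.5 to 89.4 CPM in naive libraries. All 4 markers had log2 fold changes above 0 in EAE against naive cortex, 1 of them called as higher, and none above 0 in treated against EAE cortex. Their part in the values of Kcnn2, and of Kcnt1 and Kcnab2, was not tested.

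The other SK genes did not pass. Kcnn1 had log2 fold changes of 0.21 in treated against EAE and -0.29 in EAE against naive cortex and Kcnn3 of 0.15 and -0.23, with 0.315 as the smallest edgeR adjusted p of the 4. These 2 genes and Kcnt1 are named beside Kcnn2 after their values were seen. Kcnt1, a sodium-activated channel, had 254, 297 and 331 CPM in treated libraries, 345, 396 and 319 CPM in EAE libraries and 296, 310.0 and 252 CPM in naive libraries. Its EAE libraries lay above all naive ones and overlapped the treated ones, with log2 fold changes of -0.27 (edgeR adjusted p = 0.342) in treated against EAE and 0.30 (edgeR adjusted p = 0.254) in EAE against naive cortex. Its close relative Kcnt2 had 40.1, 41.4 and 55.6 CPM in treated libraries, 38, 33 and 36.2 CPM in EAE libraries and 44.2, 40.8 and 48.5 CPM in naive libraries. Here the EAE libraries were the lowest, at 0.35 (edgeR adjusted p = 0.237) in treated against EAE and -0.32 (edgeR adjusted p = 0.258) in EAE against naive cortex. Kcnma1, the BK pore, had 0.20 and -0.16, and Kcnmb4, its main accessory subunit in neurons, 0.35 and -0.32, with 0.276 as the smallest edgeR adjusted p of the 4. Exons of Kcnmb4 share 693 bases with the antisense RNA Kcnmb4os2, whose log2 fold changes were 0.25 and -0.40, and reads of the pair cannot be told apart.

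Of the 12 inward rectifier genes none passed in any comparison, and the class medians were 0.04 in treated against EAE and -0.06 in EAE against naive cortex. Kcnj12, a strong inward rectifier, had 13, 18.4 and 15.5 CPM in treated libraries, 11.6, 10.7 and 11 CPM in EAE libraries and 18.1, 13.6 and 13.4 CPM in naive libraries. The 3 EAE libraries were the lowest of the 9. Its log2 fold change was 0.49 (SE 0.15, edgeR adjusted p = 0.181) in treated against EAE and -0.44 (SE 0.15, edgeR adjusted p = 0.194) in EAE against naive cortex. Kcnj9, a subunit of the G-protein-gated channels that open when inhibitory receptors are active, had 193, 185 and 207 CPM in treated libraries, 162, 139 and 182 CPM in EAE libraries and 173, 186 and 204 CPM in naive libraries. The treated libraries lay above all EAE ones, at 0.28 on the log2 scale (SE 0.10, edgeR adjusted p = 0.253), while EAE and naive libraries overlapped (-0.22). Kcnj4, the inward rectifier gene of highest level per kilobase of exon, stood at 151 ± 37.2, 149.5 ± 24 and 150.0 ± 33.1 CPM in treated, EAE and naive cortex. Its highest library in each group was also that of the highest summed striatal markers, though the order of the other treated libraries differed. The part of striatal markers in the values of Kcnj4 was not tested.

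Accessory subunit genes had medians of -0.04 in treated against EAE and -0.03 in EAE against naive cortex, and none of the 12 passed. Kcnab2 had 468, 532 and 582 CPM in treated libraries, 601, 579.6 and 657 CPM in EAE libraries and 486, 506 and 539 CPM in naive libraries. The EAE libraries lay above all naive ones and just overlapped the treated ones, with log2 fold changes of -0.22 (SE 0.09, edgeR adjusted p = 0.314) and 0.26 (SE 0.09, edgeR adjusted p = 0.199). Kcnip3, a calcium-binding partner of Kv4 that also binds DNA, had 143, 120.0 and 125 CPM in treated libraries, 108, 111 and 124 CPM in EAE libraries and 143, 135 and 129 CPM in naive libraries, with the EAE libraries below all naive ones (-0.25, SE 0.09, edgeR adjusted p = 0.204). The beta subunit gene Kcnab2 and the Kv1 gene Kcna6 thus had opposite signs in both comparisons. Kcna2, Kcna3 and Kcna4 also had signs opposite to those of Kcnab2, while Kcna1 and Kcna5 had the same signs as Kcnab2. Kcnab2 and Kcnip3 lay on opposite sides in EAE within the same class.

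Several channel genes are known to mark cells other than cortical neurons, and none of these passed. Kcnj10, which takes up potassium in astrocytes, had 156, 183 and 325 CPM in treated libraries, 206, 267 and 269.5 CPM in EAE libraries and 203, 195 and 265 CPM in naive libraries, and Kcnj16, its partner subunit, 34, 22 and 41.7 CPM in treated libraries, 31.5, 41.2 and 35.8 CPM in EAE libraries and 21.6, 36.5 and 27.7 CPM in naive libraries. In both genes the groups overlapped, and the log2 fold changes were -0.16 and -0.15 in treated against EAE and 0.16 and 0.34 in EAE against naive cortex. The 5 astrocyte markers summed to 1142 to 1283 CPM in treated, 1142 to 1880 CPM in EAE and 1037 to 1284 CPM in naive libraries, none of them called. Of these 5, 2 had log2 fold changes above 0 in EAE against naive cortex and 2 in treated against EAE cortex. Gfap had 262, 627 and 402 CPM in EAE and 99.6, 173 and 210 CPM in naive libraries. Summed oligodendrocyte markers were 2373, 3610 and 7453 in treated, 4475, 3974 and 4583 in EAE and 4434, 3809 and 5752 CPM in naive libraries. Treated replicates 3 and 1 held the highest and lowest values of this sum and of Kcnj10. The part of these markers in Kcnj10 was not tested. Kcnj8, a pericyte subunit of ATP-sensitive channels, had 3.32, 3.18 and 5.92 CPM in treated libraries, 4.12, 3.85 and 4.1 CPM in EAE libraries and 3.29, 4.03 and 3.96 CPM in naive libraries, with treated replicate 3 the highest and the groups overlapping. The 4 pericyte and smooth muscle markers summed to 187 to 277 CPM in treated, 217 to 284 CPM in EAE and 202 to 213 CPM in naive libraries, none of them called. Kcnj2, found in microglia and vessels, had 15.8, 28.2 and 16.9 CPM in treated libraries, 17.9, 20.2 and 15.5 CPM in EAE libraries and 31.8, 16.6 and 11.3 CPM in naive libraries, and naive replicates 1 and 3 held its highest and lowest values. Within each group its libraries ranked as the summed striatal markers did, which were 990, 301 and 131 CPM in naive libraries. The part of striatal markers in the values of Kcnj2 was not tested.

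Kcnk13 and Kcnk6 are K2P genes of microglia. Kcnk13, the channel behind the resting potassium conductance of microglia, had 8.43, 7.99 and 12 CPM in treated libraries, 7.56, 7.79 and 6.95 CPM in EAE libraries and 7.58, 10.6 and 9.3 CPM in naive libraries, with the treated libraries above all EAE ones (log2 fold change 0.34, edgeR adjusted p = 0.413). Kcnk6 had 4.27, 6.95 and 6.25 CPM in treated libraries, 6.46, 12.6 and 7.02 CPM in EAE libraries and 5.32, 5.21 and 3.38 CPM in naive libraries, and its EAE libraries lay above all naive ones and overlapped the treated ones. Its log2 fold change was -0.58 (SE 0.30, edgeR adjusted p = 0.402) in treated against EAE and 0.90 (SE 0.30, edgeR adjusted p = 0.179) in EAE against naive cortex. Summed microglia and macrophage markers were 209, 238 and 241 CPM in treated, 201, 411 and 263 CPM in EAE and 220, 223 and 176 CPM in naive libraries, none of the 5 was called, and EAE replicate 2 was the highest for the sum and for Kcnk6. Without EAE replicate 2 the log2 fold change of Kcnk6 was -0.22 in treated against EAE and 0.54 in EAE against naive cortex. Kcnn4, the calcium-activated channel of microglia and leukocytes, was under the CPM threshold with 0.317, 0.261 and 0.11 CPM in treated libraries, 0.357, 0.582 and 0.764 CPM in EAE libraries and 0.291, 0.147 and 0 CPM in naive libraries.

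Kcnj13 and Kcne2, channel genes of the choroid plexus, were highest in EAE replicate 1. Kcnj13 had 2.2, 1.42 and 0.11 CPM in treated libraries, 6.91, 2.75 and 2.02 CPM in EAE libraries and 0.738, 1.03 and 1.52 CPM in naive libraries, and its log2 fold change of 1.84 in EAE against naive cortex (SE 0.78, edgeR adjusted p = 0.287) was the largest of the 77 genes. Without EAE replicate 1 the log2 fold change of Kcnj13 in that comparison was 1.14, and without EAE and naive replicates 1 together, an alternative chosen after the data were seen, it was 0.90. Kcne2, which was under the CPM threshold, had 0.415, 0.261 and 0.147 CPM in treated libraries, 3.93, 0.647 and 0.834 CPM in EAE libraries and 0.313, 0.44 and 0.482 CPM in naive libraries. Summed choroid plexus markers were 16.8, 11.8 and 7.39 CPM in treated, 891, 24.7 and 102 CPM in EAE and 11.4, 28.7 and 43.8 CPM in naive libraries, none of the 5 was called and none was at 0 in all libraries. The highest library was thus the same for the markers and both channel genes, and their part in these values was not tested. Exons of Kcnj13 also share 623 bases with Gigyf2 on the other strand.

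**Figure D4:**
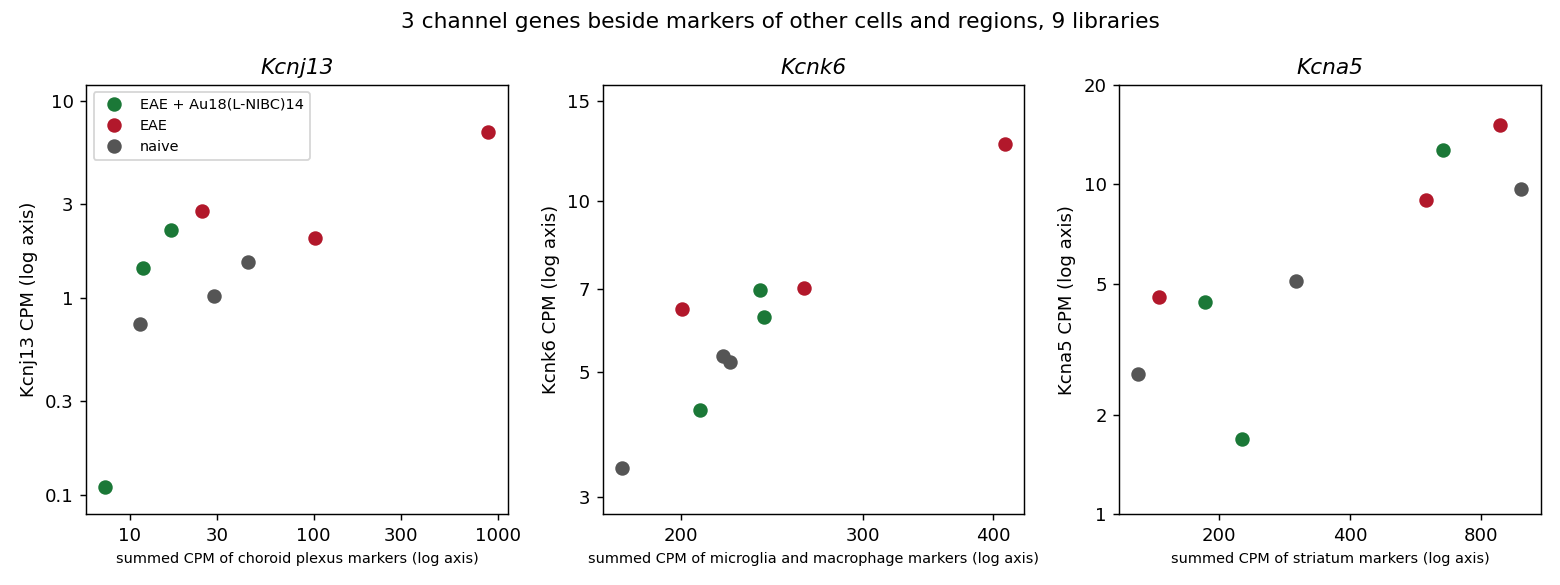
CPM of Kcnj13, Kcnk6 and Kcna5 (vertical, log axis) against the summed CPM of markers of the choroid plexus, of microglia and macrophages, and of the striatum (horizontal, log axis) in each of the 9 libraries, coloured by treated, EAE and naive cortex. EAE replicate 1 stands apart on the left with 891 CPM of choroid plexus markers and EAE replicate 2 in the middle with 411 CPM of microglia and macrophage markers, while on the right each group spreads over much of the range.

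Markers of cortical neurons and of blood are given beside the genes with lower means in EAE. None of the 6 markers of excitatory cortical neurons was called, but their sum was lower in all 3 EAE libraries than in the other 6, and all 6 log2 fold changes were above 0 in treated against EAE and below 0 in EAE against naive cortex. No single marker separated the EAE libraries in this way. Slc17a7, most of the sum, had 1319 CPM in EAE replicate 1 and 1230 CPM in naive replicate 3. EAE replicate 3 held the highest values of Fezf2 and Cux2. Red cell markers summed to 101 to 373 CPM in treated, 6.91 to 23.2 CPM in EAE and 129 to 172 CPM in naive libraries, with 1 of 4 called in treated against EAE and 2 of 4 in EAE against naive cortex. Markers of T cells and myeloid cells from blood summed to 4.78 to 7.86 CPM in treated, 6.91 to 18.6 CPM in EAE and 4.07 to 5.98 CPM in naive libraries. Their part in the channel values was not tested. The sum of the 77 channel genes themselves was 6909, 7255 and 7506 CPM in treated, 7093, 6814 and 7156 CPM in EAE and 7329, 6951 and 7330.1 CPM in naive libraries before TMM scaling, and the groups overlapped.

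Genes that act with potassium channels did not pass in any comparison with edgeR. The lists held 13 tested of 14 hyperpolarisation-activated (HCN) and sodium channel genes, 13 of 14 channel partners outside the Kcn symbols, 16 of 17 genes of the sodium-potassium pump and of cation-chloride cotransport, and 15 of 15 calcium channel genes. Their medians were 0.12, 0.11, 0.04 and 0.10 in treated against EAE and -0.11, -0.09, -0.08 and -0.09 in EAE against naive cortex, with medians over all genes of 0.003 and -0.005. Closest to the threshold was Hcn3, a gene of the channels that carry the pacemaker current, with 19.3, 23.2 and 21.9 CPM in treated libraries, 13.9, 14.7 and 14.3 CPM in EAE libraries and 20.9, 17.8 and 17.3 CPM in naive libraries. Its EAE libraries were the lowest of the 9, and its log2 fold changes were 0.59 (SE 0.10, edgeR adjusted p = 0.0678) in treated against EAE and -0.39 (SE 0.10, edgeR adjusted p = 0.104) in EAE against naive cortex. Slc12a4, a potassium-chloride cotransporter, had the opposite signs, with -0.33 and 0.48 (edgeR adjusted p = 0.218 and 0.0787). Fxyd7, a regulator of the pump in brain, had 0.45 and -0.49, and Scn2b, a sodium channel beta subunit, 0.43 and -0.34, none of them past the threshold.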

How the data were processed

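RNA of 9 cortex samples was sequenced as poly(A) libraries on an Illumina HiSeq, per the labels' protocols. Per the submitters' processing notes, reads were checked with FastQC 0.11.8 and trimmed with fastp, and the genome build was mm10. The design text names Hisat2, bowtie2 and DESeq2. The sources used here state neither annotation nor strand setting. The authors deposited 1 table of raw counts per gene symbol, not normalized, whose columns were matched to samples by title, and 9 further columns that match no sample used here were left out.

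The counts were fitted with edgeR 4.0.16 under R 4.3.3, using filterByExpr, TMM, robust glmQLFit and glmQLFTest. Group was the factor over all 9 libraries (6 residual degrees of freedom). Benjamini-Hochberg adjustment ran over 18644 genes. The SE is the absolute log2 fold change over the square root of F. Alternatives were other scalings, filters, DESeq2 1.42.0, a replicate block and left-out libraries, 1 of them added after the data were seen. The fit was tested on simulated data. The channel genes, classes, markers and partner lists were chosen with earlier results of these data known. Genes named are those past the threshold, the 8 of smallest p per comparison, the 2 of highest level per class, markers of other cells, those at the CPM threshold, and the partners of smallest p, except that values of some genes this rule names are not reported here. No library was a copy of another (chi-square per degree of freedom 16.0 to 53.4).

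Same-numbered libraries correlated in their deviations from the group means at 0.175, 0.245 and 0.238 in treated and EAE, 0.055, 0.114 and 0.36 in EAE and naive, and -0.246, -0.121 and 0.199 in treated and naive cortex. No label pairs libraries by number. Differently numbered libraries were not compared, so these correlations cannot show a pairing, and the replicate block is given as an alternative only. Exon lengths and overlaps are from GENCODE M21, promoters from RefSeq for GRCm38.p6.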

Additional observations from a re-analysis of the deposited data

How the results depend on the processing

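All 3 medians over the 77 genes moved by less than 0.07 (log2), the SD of that median between libraries of a group, under each of the 19 alternatives, and that of treated against naive cortex lay between -0.019 and 0.053. The count of 1 channel gene called in EAE against naive cortex became 2 without a filter on low counts, 3 with DESeq2 and 0 with only the 2 groups compared. With a replicate block it was 1 (238 of all genes), and with a block and only the 2 groups 8 (726 of all genes, against 184): Kcna6, Kcnab2, Kcng4, Kcnh1, Kcnh7, Kcnn2, Kcnt1 and Kcnv1. These samples share only a number. Leaving out 1 library gave 0 to 2, and leaving out EAE replicate 1 and naive replicate 1 together, an alternative chosen after seeing the data, gave 0. In treated against EAE cortex the count of 1 became 4 with DESeq2 and 0 with only the 2 groups, with a replicate block (46 of all genes, against 41), with a block and only the 2 groups (4 of all genes), and without EAE replicate 1 and naive replicate 1; leaving out 1 library gave 0 to 1. In treated against naive cortex it was 0 throughout. Among single genes, Kcnj2 in EAE against naive cortex ranged from -0.438 to 0.359 on leaving out 1 library and was 0.354 without both replicates 1, where Kcnj8 was -0.013. In treated against EAE cortex the ranges were -0.544 to 0.028 for Kcnj10, -0.368 to 0.057 for Kcnj16, -0.136 to 0.326 for Kcnj2 and -0.307 to 0.183 for Kcnj8, which was -0.026 and -0.008 with the block in 2 groups and in all. In treated against naive cortex Kcnab1 ranged from -0.576 to 0.013 and was 0.008 without both replicates 1. The causes were not tested. Of 323, 342 and 190 values of named genes in EAE against naive, treated against EAE and treated against naive cortex, 301, 320 and 188 kept their direction and side of the threshold. These include values of genes far from the threshold. The call of Kcnn2 in EAE against naive cortex was kept under 11 of 19 alternatives. That of Kcna6 in treated against EAE cortex was kept under 7 of 19. Kcnj13 and Kcng4, whose libraries spread widely within a group, have wide errors. With 3 libraries a group, a difference in them may not be detectable.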

Other observations

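Members of the potassium channel families that stayed under 1 CPM were described only where they mark a cell type or lie just outside the threshold, and 3 more were seen after the fact. Kcnq1, the cardiac and epithelial Kv7 subunit whose antisense transcript is Kcnq1ot1, had 1.1, 0.877 and 0.698 CPM in treated, 0.617, 0.744 and 0.313 CPM in EAE and 0.872, 0.917 and 0.551 CPM in naive libraries. Kcnh8, an ELK subunit gene, had 0.781, 0.522 and 0.294 CPM in treated, 0.746, 0.647 and 0.208 CPM in EAE and 0.648, 0.550 and 0.586 CPM in naive libraries. Kcnk5, a pH-sensitive K2P gene, had 1.00, 0.379 and 1.07 CPM in treated, 0.714, 0.809 and 0.799 CPM in EAE and 0.648, 0.623 and 0.310 CPM in naive libraries. In Kcnq1 and Kcnh8 the groups overlapped, and in Kcnk5 the EAE libraries lay above all naive ones while the treated libraries overlapped both.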
